A study of Mus musculus with 12 samples.

Results

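The genes described here are 3 Egr transcription factors, Egr1, Egr2 and Egr3, and the 2 Nab corepressors that bind them, Nab1 and Nab2. They were picked by gene symbol from the 49492 rows of the count table, and all 5 were among the 15542 genes that passed the filter on low counts. The study sequenced polyadenylated RNA of the left ventricle of mice in 12 libraries, with 3 libraries for each of 4 groups: WT_NS, WT_TAC, Alox5ko_NS and Alox5ko_TAC. WT is wild type and Alox5ko carries a knockout of Alox5, the enzyme that starts leukotriene synthesis. TAC, transverse aortic constriction, is surgery that tightens the aorta so that the ventricle pumps against a raised pressure. NS is not spelled out in the labels and is used as the name of the groups without TAC. The genotype is written only as Alox5ko on the samples, whereas the design text speaks of a deficiency in the heart, so which cells lack the gene is not given in the sources used here. Neither the age of the mice nor the time after TAC is given there.

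Egr factors are zinc-finger proteins whose genes are switched on within minutes of growth factor, stretch or hormone stimulation, largely through ERK kinases, the ternary complex factors of the Elk family and serum response factor. They bind GC-rich sites and can activate or repress. Nab1 and Nab2 do not bind DNA. They dock on a repression domain shared by Egr1, Egr2 and Egr3 and bring in the NuRD complex through its helicase Chd4. Nab2 is itself described as a gene that Egr factors induce, which makes a feedback loop, and Nab1 has been studied as a brake on hypertrophy of cardiac muscle. The promoter of human ALOX5 is GC-rich and has been described as a target of Egr-1 and Sp1.

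The sequence just before the start of 3 of the 5 genes is shown first. The windows are the 250 bases before each start in RefSeq, build GRCm38.p6, and those of Nab1, Nab2 and Egr2 were searched. Windows of the rest of the 5 were not searched, so their sites are not described. Motifs were searched on both strands. The Nab1 window held GCGTGGGCG, a 9-base Egr site, at 2 places, and the related site GCGGGGGCG at 1. Of the 32851 windows in that table, 0.536% held the first and 2.57% the second. GENCODE counts 231 of the 250 bases as the first exon of Nab1, so only 30 bases around each site are given, on the minus strand, with the site in capitals. The first and the middle piece hold GCGTGGGCG, on opposite strands, and the last holds GCGGGGGCG.
Nab1 chr1:52500570-52500599: gccccgcggcCGCCCACGCcgggatctgcg
Nab1 chr1:52500538-52500567: actcggccgcGCGTGGGCGggagccggagc
Nab1 chr1:52500467-52500496: gcggggcgggGCGGGGGCGgcggaggtggc

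The Nab2 window held no exact match to either Egr site. It held 1 GC box, GGGCGG, the core of Sp1 sites, which 32.7% of the windows hold and which can overlap an Egr site; it is in capitals below, as its reverse complement. The 243 bases shown leave out 7 that GENCODE counts as untranslated exon. This stretch lies inside the longer span that GENCODE gives Nab2 and touches an exon of Nemp1 on the other strand. No window was searched at the start of that span, 127668568 on the minus strand, so the absence of an Egr site covers only this window.
Nab2 chr10:127666711-127666953, minus strand: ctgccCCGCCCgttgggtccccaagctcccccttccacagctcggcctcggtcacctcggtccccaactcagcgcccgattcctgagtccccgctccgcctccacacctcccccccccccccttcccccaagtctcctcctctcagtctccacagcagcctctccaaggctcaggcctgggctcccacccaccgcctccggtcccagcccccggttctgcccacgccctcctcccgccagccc

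Of 5 starts listed for Egr2, 4 had a CArG box, the site of serum response factor, in their window; 3 of these windows overlap and hold the same box, and the first of them is shown with the box in capitals. The window at the start of the GENCODE span had none and held 4 GC boxes. A CArG box was found in 1.47% of the windows. The window of Alox5 was searched too. It held 1 GC box, no exact match to either Egr site and no CArG box. A match of letters is a description of these windows and does not show that a factor binds there.
Egr2 chr10:67537619-67537868, plus strand: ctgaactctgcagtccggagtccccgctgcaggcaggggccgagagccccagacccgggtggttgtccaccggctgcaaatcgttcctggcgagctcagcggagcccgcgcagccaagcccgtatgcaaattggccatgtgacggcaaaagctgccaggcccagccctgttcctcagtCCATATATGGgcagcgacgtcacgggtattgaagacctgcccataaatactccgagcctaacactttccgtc

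Library totals ran from 20889431 to 27311196 counts. Alox5 had 9.56 to 13.9 CPM in the 6 WT libraries and 0.934 to 1.46 CPM in the 6 Alox5ko libraries, so every library fell on the side of its label. CPM is the count scaled to a common library size, here with the TMM factors of edgeR. Separate animals are not stated for the libraries in the labels, and p-values therefore cover only the differences among these libraries, which may be technical. Cardiomyocyte markers, which define the labelled tissue, summed to 144134 CPM or more in each library. Markers of activated fibroblasts differed between libraries of 1 group: their sum was 423, 170 and 202 CPM in WT_TAC 1, 2 and 3 and 224, 99.7 and 278 CPM in Alox5ko_TAC 1, 2 and 3. Without TAC it ran from 75.9 to 167 CPM, of which the marker Acta2 averaged 104 CPM in WT_NS and 56.4 CPM in Alox5ko_NS. In whole tissue, fewer cells of a type and less RNA per cell cannot be told apart.

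Per base of gene length, Nab1 was the most abundant of the 5 in WT_NS, Alox5ko_NS and Alox5ko_TAC. The Egr factors other than Egr1 were scarce. The rank of Nab2 depends on how reads were counted where it overlaps other genes, which is not known. The deposited RPKM values, which divide the count by gene length and by the library's total, averaged 9.68 for Nab1 over the 12 libraries, 8.50 for Nab2 and 6.33 for Egr1, levels above those of 81.4%, 79.5% and 74.4% of the tested genes. Egr3 averaged 0.674 RPKM and Egr2 0.428 RPKM, above 25.0% and 16.9% of the tested genes. Egr4, the family member that lacks the Nab docking domain, is listed at 0 counts in every library. A count of 0 among 276136858 allows up to 3 counts, or 0.0109 CPM.

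The members fell into steady and variable genes. The log2 CPM of Nab1 spanned 0.31 between its lowest and highest library, and only 8.63% of tested genes spanned less. Egr1, Egr2 and Egr3 spanned 3.65, 3.61 and 3.94, wider than 99.7%, 99.7% and 99.8% of tested genes, and Nab2 spanned 2.08, wider than 96.0%. Egr2 and Egr3 rest on few reads, with 5 to 76 and 1 to 46 counts per library.

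**Figure D1:**
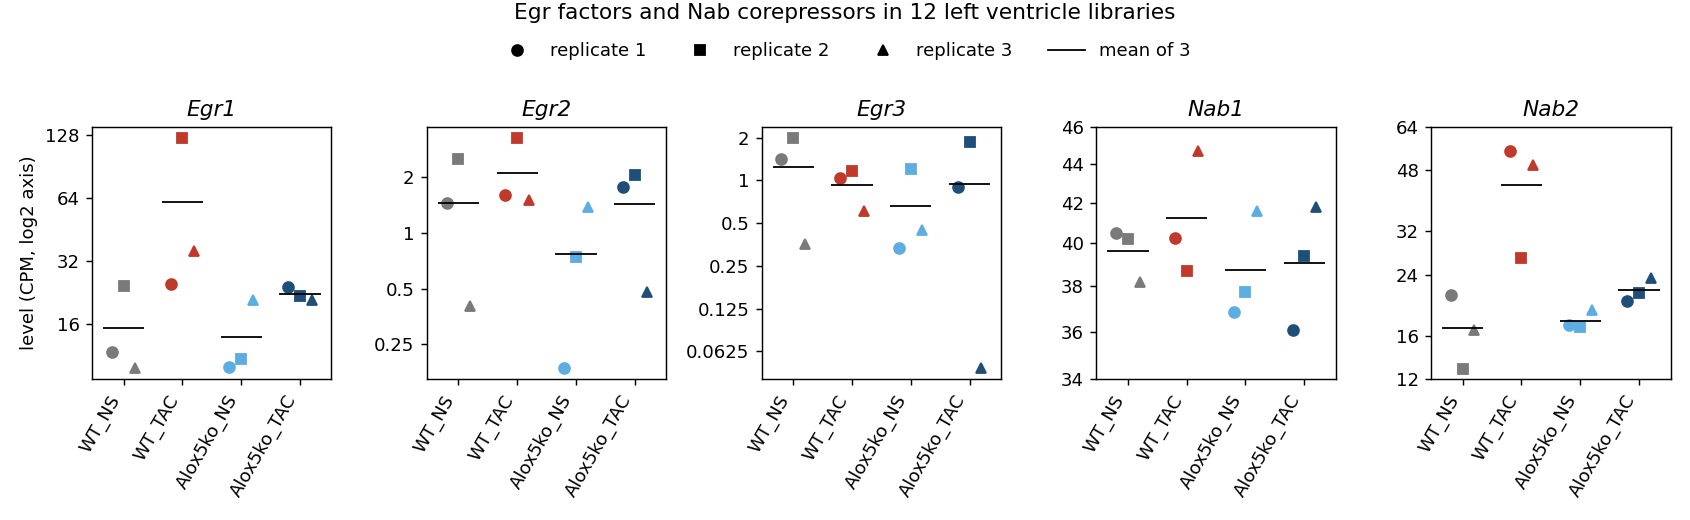
Level of each gene in each of 12 left ventricle libraries (CPM, log2 axis with its own range in each panel) by group; marker shapes give the replicate number and bars the mean of 3. Nab2 and Egr1 have their highest libraries in WT_TAC, Nab1 stays between 36.1 and 44.7 CPM, and Egr2 and Egr3 spread widely over the 12 libraries.

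Egr1, the best known immediate early transcription factor of the family (chromosome 18, 34859823 to 34864984, plus strand), had its highest levels in WT_TAC. It stood at 11.8, 24.4 and 9.87 CPM in WT_NS 1, 2 and 3 and at 25.0, 124 and 35.7 CPM in WT_TAC 1, 2 and 3. In the knockout it stood at 9.94, 10.8 and 20.8 CPM in Alox5ko_NS 1, 2 and 3 and at 24.1, 21.8 and 20.9 CPM in Alox5ko_TAC 1, 2 and 3. The TAC groups lay above the NS groups without overlap in both genotypes, as they did for 10.1% of tested genes in WT and 8.98% in Alox5ko. In WT the margin between WT_NS 2 and WT_TAC 1 was less than 1 CPM. In the knockout it was nearly a tie, with 20.85 CPM (469 counts) in Alox5ko_NS 3 and 20.89 CPM (437 counts) in Alox5ko_TAC 3. WT_TAC 2, with 2904 counts, was far above the other libraries, of which WT_TAC 3 was the next with 760.

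None of the Egr1 differences passed the test. The test was edgeR's quasi-likelihood F test with Benjamini-Hochberg adjustment over all 15542 genes. Genes with an adjusted p under 0.05 are the ones called. Egr1 had a log2 fold change of 2.01 with TAC in WT (SE 0.652, 95% interval 0.51 to 3.50, adjusted p = 0.255). In Alox5ko it had 0.69 (SE 0.658, 95% interval -0.82 to 2.20, adjusted p = 0.702). The WT value was 0.97 without WT_TAC 2 (adjusted p = 0.490). Between the genotypes under TAC it was -1.47 (SE 0.635, adjusted p = 0.582), with no overlap between Alox5ko_TAC and WT_TAC, and -0.44 without WT_TAC 2. Without TAC the groups overlapped, at -0.16 (SE 0.667, adjusted p = 0.981).

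Egr2 (chromosome 10, 67535475 to 67542188, plus strand), the factor that drives myelination by Schwann cells, was low and overlapped between all groups compared. Its levels were 1.45, 2.50 and 0.404 CPM in WT_NS 1, 2 and 3 and 1.60, 3.26 and 1.50 CPM in WT_TAC 1, 2 and 3. They were 0.187, 0.746 and 1.38 CPM in Alox5ko_NS 1, 2 and 3 and 1.78, 2.06 and 0.478 CPM in Alox5ko_TAC 1, 2 and 3. The highest library was again WT_TAC 2 and the lowest Alox5ko_NS 1. With TAC the log2 fold change was 0.54 in WT (SE 0.713, 95% interval -1.06 to 2.15, adjusted p = 0.847). The knockout gave 0.95 (SE 0.807, 95% interval -0.87 to 2.77, adjusted p = 0.661). Markers of Schwann cells summed to between 4.28 and 7.72 CPM in all libraries. With TAC 0 of 4 tested markers were called in either genotype, where 0.766% and 1.34% of all genes were called.

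Egr3 (chromosome 14, plus strand), known for its part in muscle spindles and T cells, was as scarce and had no common direction. It was counted over 1416 bases between 70077445 and 70080157, which is 32.1% of the 4406 exon bases of the GENCODE gene. Levels were 1.41, 1.99 and 0.359 CPM in WT_NS 1, 2 and 3 and 1.03, 1.16 and 0.610 CPM in WT_TAC 1, 2 and 3. In Alox5ko_NS 1, 2 and 3 they were 0.336, 1.19 and 0.445 CPM, and in Alox5ko_TAC 1, 2 and 3 they were 0.891, 1.87 and 0.0478 CPM. Replicate 2 was the highest library of every group, a number that the labels do not tie to a batch. With TAC the log2 fold change was -0.42 in WT (SE 0.824, adjusted p = 0.910). The knockout gave 0.50 (SE 0.879, adjusted p = 0.854). This last value was -0.45 without Alox5ko_TAC 2. T cell markers summed to 1.78 CPM or less in every library.

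Nab1 (chromosome 1, 52457294 to 52500679, minus strand) hardly moved. It had 39.6 ± 1.25 CPM in WT_NS, 41.2 ± 3.11 in WT_TAC, 38.7 ± 2.49 in Alox5ko_NS and 39.1 ± 2.88 in Alox5ko_TAC (SD, n = 3). All 4 groups overlapped. The 95% interval of its log2 fold change with TAC ran from -0.12 to 0.24 in WT and from -0.17 to 0.19 in Alox5ko. Between the genotypes it ran from -0.26 to 0.10 with TAC and from -0.21 to 0.15 without. These were the narrowest intervals of the 5 genes, with 850 to 1013 counts per library.

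Nab2 (chromosome 10, 127660918 to 127668568, minus strand) was the member that changed. It had 463, 298 and 370 counts in WT_NS 1, 2 and 3, or 21.0, 12.9 and 16.6 CPM. In WT_TAC 1, 2 and 3 it had 1162, 624 and 1054 counts, or 54.5, 26.7 and 49.5 CPM. In the knockout it stood at 17.1, 17.0 and 19.0 CPM in Alox5ko_NS 1, 2 and 3 and at 20.1, 21.2 and 23.5 CPM in Alox5ko_TAC 1, 2 and 3. The 3 WT_TAC libraries were the 3 highest of all 12, WT_TAC 2 being the nearest to the rest.

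Nab2 rose with TAC in WT, from 16.8 ± 4.08 to 43.6 ± 14.8 CPM (SD, n = 3), a log2 fold change of 1.37 (SE 0.252, 95% interval 0.81 to 1.93, adjusted p = 0.0443 by edgeR). It was the 1 of 5 members called in that comparison, in which 0.766% of all tested genes were called. Egr1 and Nab2 were the 2 of 5 members that were higher without overlap there, against 10.1% of all tested genes. In Alox5ko the value for Nab2 was 0.29 (SE 0.252, 95% interval -0.27 to 0.85, adjusted p = 0.667). There 0 of 5 members were called, against 1.34% of all tested genes. Egr1 and Nab2 were again higher without overlap, against 8.98%, but for Egr1 the nearest libraries were almost level. At an unadjusted p under 0.05, Nab2 and Egr1 passed in WT, as did 1845 of the 15542 genes, and 0 of the 5 passed in Alox5ko, where 2253 genes did.

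The call in WT rests on few libraries. It was lost without any 1 of 5 of the 6 libraries compared: without WT_NS 1, 2 or 3 the adjusted p was 0.0822, 0.0919 and 0.182, and without WT_TAC 1 or 3 it was 0.0885 and 0.120. Without WT_TAC 2, whose Nab2 was the lowest of its group, the value was 1.62 (adjusted p = 1.15e-05). A fit of only the 6 libraries also lost the call (1.37, adjusted p = 0.216), while DESeq2 kept it (adjusted p = 0.000144). The value stayed between 1.18 and 1.62 with each library left out in turn.

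**Figure D2:**
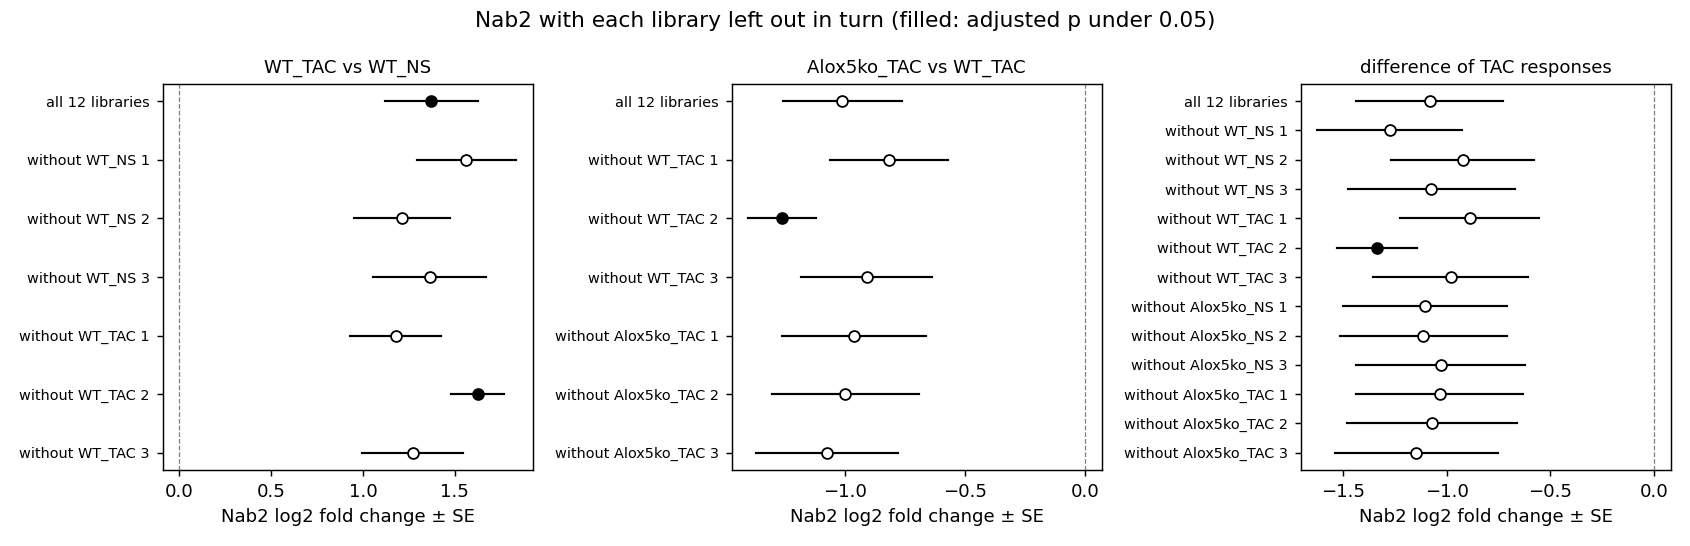
Log2 fold change of Nab2 with its standard error in all 12 libraries and with each library left out in turn, for TAC in WT, for Alox5ko_TAC against WT_TAC and for the difference of the TAC responses; filled points have an adjusted p under 0.05. Values keep their sign in every row, and leaving out WT_TAC 2 gives an adjusted p under 0.05 in all 3 panels.

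Under TAC, Nab2 was lower in the knockout in all libraries, with no overlap, but the difference did not pass the test. The log2 fold change of Alox5ko_TAC against WT_TAC was -1.01 (SE 0.248, 95% interval -1.56 to -0.46, unadjusted p = 0.00232, adjusted p = 0.286 by edgeR). None of the 5 members was called in this comparison, in which 0.109% of tested genes were called by edgeR; at an unadjusted p under 0.05, Nab2 and Egr1 passed, as did 1320 of the 15542 genes. Egr1 and Nab2 were the 2 of 5 members that were lower without overlap, against 6.51% of tested genes in that direction. DESeq2 called Nab2 (-1.002, adjusted p = 0.0441), and so did edgeR without WT_TAC 2 (-1.26, adjusted p = 0.000306). WT_TAC and Alox5ko_TAC are each part of the TAC comparisons too, so these differences are not separate observations.

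The difference of the TAC responses, Alox5ko minus WT, has its own test. For Nab2 it was -1.08 (SE 0.355, 95% interval -1.88 to -0.29, unadjusted p = 0.0125, adjusted p = 0.814 by edgeR), and for Egr1 it was -1.31 (SE 0.917, 95% interval -3.42 to 0.79, adjusted p = 0.998). The percentage of genes called in this test by edgeR was 0, with 835 at an unadjusted p under 0.05 and 1 call by DESeq2, so a difference between the genotypes in the Nab2 response was not established. Without WT_TAC 2 the Nab2 value was -1.34 (adjusted p = 0.0360). Averaged over the genotypes, Nab2 rose with TAC by 0.83 (SE 0.178, adjusted p = 0.0272 by edgeR), the 1 of 5 members called where 5.08% of all genes were. That call stayed without 4 of the 12 libraries and was lost without any 1 of the other 8 (adjusted p up to 0.0762). Averaged over treatments, the genotype difference of Nab2 was -0.47 (SE 0.177, adjusted p = 0.430), where 0.154% of genes were called and 0 of 5 members, with Nab2 the 1 member among 1518 genes at an unadjusted p under 0.05. Without TAC it was 0.07 (SE 0.255, adjusted p = 0.977), with 0 of 5 members called by edgeR, 0 of 5 at an unadjusted p under 0.05 (988 of all genes), and 0.0386% of all genes called.

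**Figure D3:**
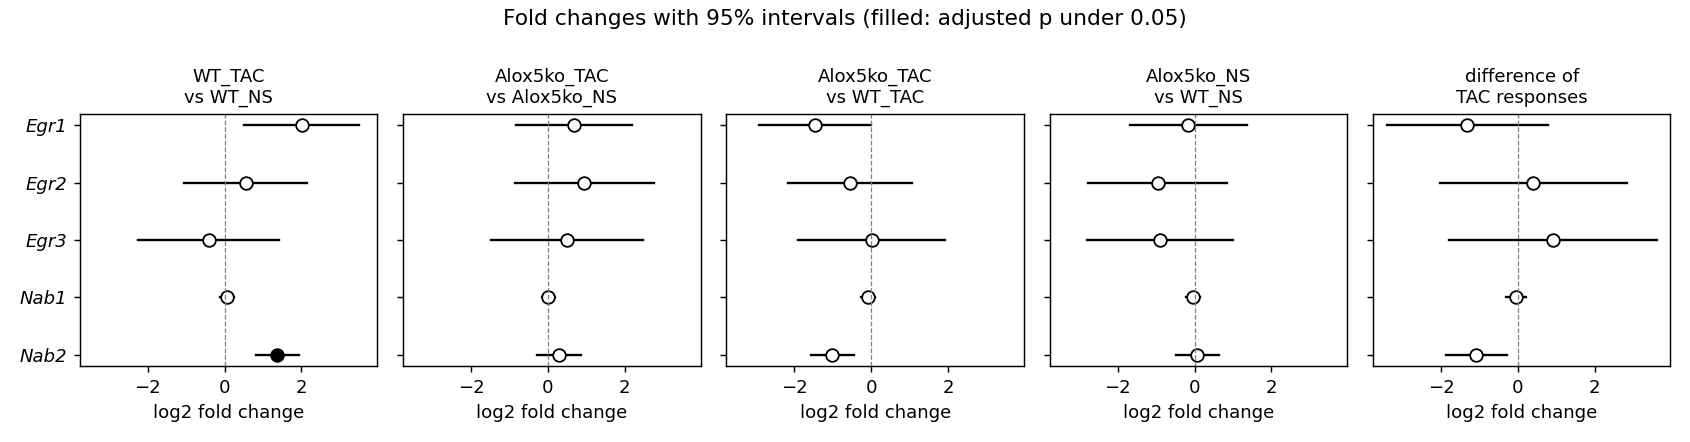
Log2 fold change (point) and 95% interval (line) of each gene in the 4 pairwise comparisons and for the difference of the TAC responses (Alox5ko minus WT). Nab2 with TAC in WT, at 1.37, is the filled point, with an adjusted p of 0.0443; Nab1 has the narrowest intervals and the Egr factors the widest.

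Ordered by mean level, Nab2 was highest in WT_TAC, followed by Alox5ko_TAC, Alox5ko_NS and WT_NS. Neighbours in this order from Alox5ko_TAC downwards did not differ beyond the test, and WT_NS 1 lay above Alox5ko_TAC 1. The balance of the corepressors shifted with it. The ratio of Nab2 to Nab1, both per base, was 0.724, 0.446 and 0.605 in WT_NS 1, 2 and 3 and 1.89, 0.963 and 1.54 in WT_TAC 1, 2 and 3. It lay between 0.626 and 0.648 in Alox5ko_NS and between 0.751 and 0.785 in Alox5ko_TAC. By these values WT_TAC 1 and 3 were the 2 libraries with more Nab2 than Nab1. Nab2 shares 1050 of its 2941 exon bases with Gm16229 on the opposite strand, and how reads there were counted is not known. Which libraries have more Nab2 than Nab1 depends on that.

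The ratio of Egr1 to Nab2 per base did not follow the groups. It was 0.301, 3.05 and 0.473 in WT_TAC 1, 2 and 3, so that the same group held the lowest and the highest library of the 12. In WT_NS 1, 2 and 3 it was 0.368, 1.25 and 0.390, with replicate 2 again above the others. It ran from 0.380 to 0.719 in Alox5ko_NS and from 0.583 to 0.783 in Alox5ko_TAC.

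**Figure D4:**
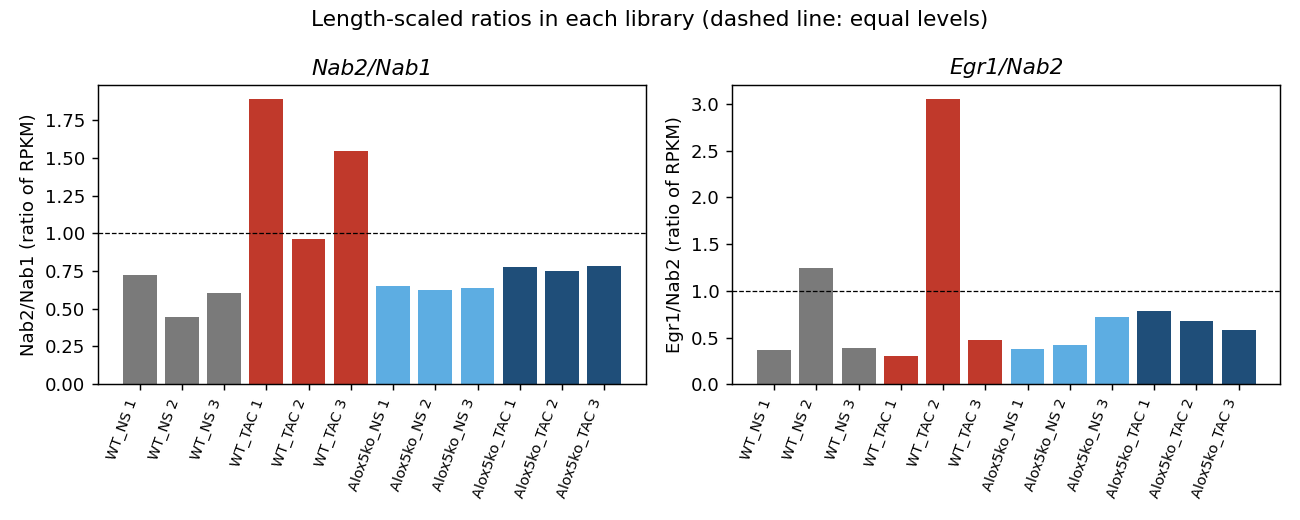
Ratios of RPKM in each library, Nab2 to Nab1 on the left and Egr1 to Nab2 on the right; bars are single libraries, coloured by group, and the dashed line marks equal levels. Nab2 exceeds Nab1 in WT_TAC 1 and 3 alone, and Egr1 exceeds Nab2 in WT_NS 2 and WT_TAC 2 alone. Both ratios depend on how reads in exons that Nab2 shares with other genes were counted.

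Nab2 shares exon bases with 3 genes on the opposite strand, which bears on its counts. The libraries are directional, but whether the counting used the strand is not given in the sources used here, so reads of overlapping genes cannot be told apart. The predicted gene Gm16229 (127663839 to 127665484, plus strand) shares 1050 of the 2941 exon bases of Nab2. It had 152, 116 and 126 counts in WT_NS 1, 2 and 3, 411, 244 and 322 in WT_TAC, 173, 155 and 139 in Alox5ko_NS and 183, 167 and 192 in Alox5ko_TAC. Its order across libraries of WT_TAC was that of Nab2, and with TAC its WT level rose by 1.35 (SE 0.180, adjusted p = 0.00378 by edgeR). With the counts of both genes summed, an alternative added after seeing the data, the WT value was 1.37 (adjusted p = 0.0376). Nemp1, a nuclear envelope protein, shares 151 bases and had a value of 0.81 in WT (adjusted p = 0.0752). Stat6, the transcription factor of interleukin-4 signalling, shares 40 bases and had 0.13 (adjusted p = 0.596). No other row of the count table shared an exon base with Egr1, Egr2, Egr3 or Nab1.

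Activated fibroblast markers stood beside the Nab2 values as follows. Of 6 tested markers, 5 had a positive value with TAC in WT and 0 were called, with a median of 2.01. The share of all genes called there was 0.766%. Acta2, a large part of the marker sum, went the other way, from a mean of 104 CPM in WT_NS to 78.7 CPM in WT_TAC. Averaged over the genotypes, 3 of the 6 were called higher by edgeR, where 5.08% of all genes were called. WT_TAC 1 was the highest library for both Nab2 (54.5 CPM) and the marker sum (423 CPM), and WT_TAC 2 the lowest of its group for both. Alox5ko_TAC 3, with a marker sum of 278 CPM, had 23.5 CPM of Nab2, below the 49.5 CPM of WT_TAC 3 at a sum of 202 CPM. No marker of the list was at 0 throughout. The part of these cells in the Nab2 result was not tested.

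Of the 10 pairs of members, Egr1 with Egr2 and Egr2 with Egr3 had an adjusted p under 0.05 by Pearson's r. Over 12 libraries the log2 CPM of Egr1 and Egr2 had Pearson's r = 0.712 (adjusted p = 0.0479) and Spearman's rho = 0.825 (adjusted p = 0.0159), by permutation and adjusted over 10 pairs of members. Without the 2 libraries farthest from the median, WT_NS 3 and WT_TAC 2, r was 0.627. Taken as deviations from the group means, r was 0.647 (adjusted p = 0.0691) and rho 0.797 (adjusted p = 0.0302). Egr2 and Egr3 had r = 0.708 (adjusted p = 0.0479) and rho = 0.720 (adjusted p = 0.0558), and 0.717 without 2 libraries. As deviations from the group means they had r = 0.769 (adjusted p = 0.0137) and rho = 0.678 (adjusted p = 0.0842), by permutation. For both pairs the deviations were shuffled across the groups, so their p-values are approximate and can be too small. Egr1 and Egr3 had r = 0.204 (adjusted p = 0.632) and rho = 0.329 (adjusted p = 0.457), and no difference between pairs was tested.

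Egr1 and Nab2 had r = 0.432 over the 12 libraries (adjusted p = 0.410) and rho = 0.650 (adjusted p = 0.0880). Within the groups the sign turned. The deviations of Egr1 and Nab2 from the group means had r = -0.801 (adjusted p = 0.0137) and rho = -0.650 (adjusted p = 0.0842), by permutation. These deviations were shuffled over all 12 libraries and not within groups, so the p-values are approximate and can be too small. The relation weakened to r = -0.403 without WT_NS 2 and WT_TAC 2, so it rests on those libraries, in which Egr1 was highest and Nab2 lowest of the group. The labels give no batch within which to repeat it.

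The genes with the most similar profile were found by the root mean square difference of mean-centred log2 CPM over the 12 libraries. For Nab2, whose own root mean square deviation was 0.593, the nearest were Gli1, a transcription factor of hedgehog signalling (0.209), Fam117a (0.265), the tendon transcription factor Scx (0.267), Ssc5d (0.292) and Dact1 (0.292). Gli1 was scarce, averaging 0.388 CPM in WT_NS, 0.813 in WT_TAC, 0.407 in Alox5ko_NS and 0.437 in Alox5ko_TAC. Scx and Dact1 were themselves called with TAC in WT, at 1.41 and 1.45 (adjusted p = 0.00626 and 0.0135 by edgeR), while Gli1 had 1.05 (adjusted p = 0.268). Genes picked for likeness to Nab2 in these same libraries tend to share its rise, so these values are not separate observations. For Egr2 the nearest were Fos (0.617), Apold1, Clec7a, Junb and Has2, of which Fos and Junb are AP-1 subunits and immediate early genes. For Egr3 they were the immediate early nuclear receptor Nr4a1 (0.686), Atg9b, Shroom1, C78197 and Mir6935. For Egr1, with its own deviation of 0.966, they were Rasl11b (0.582), Ptgs2, the inducible cyclooxygenase (0.585), Ankrd45, Fam26e and the kinase Plk2. Nab1 spanned less than 1 on the log2 scale and was not compared.

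The pathway around the members was followed in gene lists. Of 24 other immediate early genes, 0 were called in either genotype with TAC by edgeR, where 0.766% and 1.34% of all genes were called. Their median was 0.04 in WT, with 13 positive, and 0.21 in Alox5ko, with 17 positive, while the medians of all genes were 0.0045 and -0.0028. The nearest to a call were Ier3 in WT, at 0.63 (SE 0.177, adjusted p = 0.113), and Ctgf in Alox5ko, at 1.31 (SE 0.335, adjusted p = 0.116). Averaged over the genotypes Ier2 and Ctgf rose by 0.55 and 1.02 (adjusted p = 0.0204 and 0.0469 by edgeR). They were the 2 of 24 called there, where 5.08% of all genes were called.

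WT_TAC 2, the library with the most Egr1, did not stand out for all early genes. It was the highest of the 12 for 7 of the 24, namely Fos, Fosl1, Junb, Ier2, Ier3, Dusp1 and Zfp36, and the lowest for Atf3, Klf6, Maff and Nr4a3. Fos stood at 6.76, 25.0 and 8.69 CPM in WT_TAC 1, 2 and 3, with WT_TAC 2 the highest, as for Egr1. Nr4a3, an orphan nuclear receptor, stood at 11.4, 2.40 and 11.6 CPM in the same libraries. These genes were named after their values were seen. In Alox5ko_NS against WT_NS, 22 of the 24 early genes had a negative value, with a median of -0.36 against 0.0017 for all genes. By edgeR 0 were called, where 0.0386% of all genes were called. Markers of activated fibroblasts, of smooth muscle and pericytes and of endothelium were negative for 6 of 6 tested genes each in that comparison, with medians of -0.59, -0.52 and -0.26 and 0 called. Their part in the values of the early genes was not tested.

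**Figure D5:**
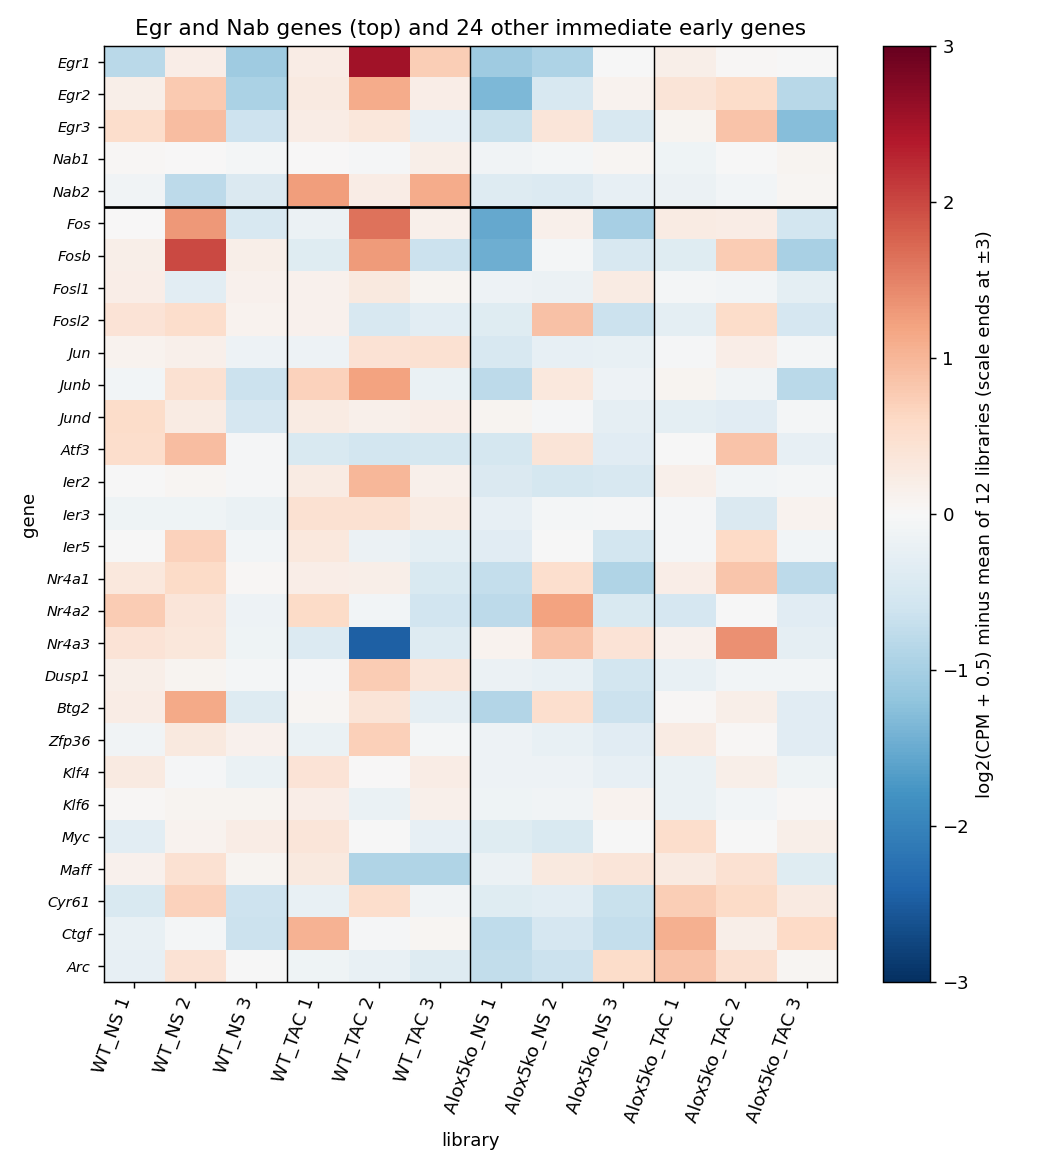
Each cell is the log2(CPM + 0.5) of a gene (rows) in a library (columns) minus its mean over the 12 libraries, on a colour scale that ends at 3 on either side; Egr and Nab genes are above the line and 24 other immediate early genes below it. WT_TAC 2 is highest for 7 of the 24 and lowest for 4, and Nab1 is nearly even.

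Genes upstream of the members were read against the shares of all genes called, 0.766% with TAC in WT, 1.34% in Alox5ko and 5.08% averaged over the genotypes. Of 16 genes of the ERK and serum response factor pathway 0 were called in either TAC comparison, and averaged over the genotypes 2 of the 16 were: Elk3, a ternary complex factor, and Mkl2, a coactivator of serum response factor, rose by 0.38 and 0.34 (adjusted p = 0.0124 and 0.0198). Of 10 feedback inhibitors of ERK 0 were called in any comparison. Errfi1, an inhibitor of the EGF receptor, was the nearest, at -0.72 with TAC in WT (SE 0.182, adjusted p = 0.104). Of 13 genes of the NuRD complex, through which Nab proteins repress, 0 were called in any comparison, and Chd4 had 0.25 with TAC in WT (adjusted p = 0.238).

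Of 17 genes described as Egr targets, 15 were tested. With TAC, 0 were called in WT, and in Alox5ko the growth factor gene Fgf2 fell by 0.55 (SE 0.125, adjusted p = 0.0333 by edgeR). Of all genes, 0.766% and 1.34% were called there, and 5.08% averaged over the genotypes. Averaged over the genotypes 2 of the 15 were called: Fn1, fibronectin, and Vegfa rose by 0.61 and 0.26 (adjusted p = 0.0127 and 0.0125). Alox5, the gene named in the genotype, is itself on this list.

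Genes that cardiac myocytes raise under load were also listed. All 7 had a positive value in both genotypes, with medians of 0.89 in WT and 1.49 in Alox5ko, and 1 of 7 was called in each, where 0.766% and 1.34% of all genes were called. The intermediate filament gene Des rose in WT by 0.55 (adjusted p = 0.0343) and Xirp2, of the intercalated disc, rose in Alox5ko by 1.25 (adjusted p = 0.0312). Averaged over the genotypes, 5 of the 7 were called higher by edgeR, with a median of 1.15, where 5.08% of all genes were called. Acta1, the actin gene of skeletal muscle, averaged 177 CPM in WT_NS and 788 CPM in WT_TAC, a value of 2.15 (SE 0.679, adjusted p = 0.243).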

How the data were processed

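Per the labels' protocols, polyadenylated RNA from left ventricle was made into directional libraries and read as 150-base pairs. The submitters' processing notes name HISAT2, DESeq2, GRCh38 and mm10; the counting program, annotation and strand setting are not given in the sources used here. The authors deposited raw counts per gene symbol and RPKM values; recomputing the RPKM from counts, deposited lengths and totals gave all 336840 values within 0.1%. Positions come from GENCODE release M21 (GRCm38, the same assembly as mm10), in which 4 of the 5 members have the deposited span.

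Genes were kept by filterByExpr (minimum count 10, minimum total 15), which left 15542, and edgeR 4.0.16 fitted 1 quasi-likelihood model, with group as its only term, to the 12 libraries together (TMM, robust; limma 3.58.1, R 4.3.3). Fold changes are log2, with SE taken as the fold change over the root of F. The common biological coefficient of variation was 0.107. Libraries of a group differed by a chi-square per gene of 5.02 or more, so none was a copy of another. Alox5ko_NS 3 differed most, by 20.6 from Alox5ko_NS 1 and 29.3 from Alox5ko_NS 2, which differed from each other by 5.23. The smallest p of an exact two-sided test of 3 against 3 is 0.1, so single genes were tested by the model alone. Correlations used 100000 permutations over all 12 libraries, also for deviations from group means, where shuffling ignores the groups. Symbols turned into dates (26 rows) are not named. The fit was tested on simulated data.

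Alternatives were RLE scaling, no low-count filter, DESeq2 1.42.0, only the 6 libraries compared, the replicate number as a block, each library left out, and, added after seeing the data, Nab2 and Gm16229 summed. The members and gene lists were chosen with earlier results of these data known. Named genes are the members, Alox5, up to 4 genes per list with the smallest adjusted p, the 5 nearest profiles of each variable member (predicted genes left out) and genes overlapping a member; others are said to be named after their values were seen. Promoter windows are from RefSeq (GRCm38.p6).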

Additional observations from a re-analysis of the deposited data

How the results depend on the processing

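Without the low-count filter 538 genes were called with TAC in WT, 756 with TAC in Alox5ko, 252 between the genotypes under TAC, 116 without TAC, 83 for the difference of the responses, 1331 with TAC over both genotypes and 348 between the genotypes over both treatments; all but the fifth are more than 1.5 times the count with the filter (119, 209, 17, 6, 790 and 24), and the fifth was 0. By DESeq2 the counts were 285, 407, 59, 24 and 1 for the first 5 and 99 for the last, and with only the 6 libraries compared they were 215 with TAC in WT, 39 between the genotypes under TAC and 18 without TAC. With each library left out in turn the counts ran from 17 to 95, 60 to 379, 10 to 27, 2 to 7, 0 to 1, 407 to 990 and 15 to 44, in the same order. Of the members, Nab1 with TAC in WT ran from -0.0065 to 0.0957 and Egr3 from -0.86 to 0.087; in Alox5ko Egr3 ran from -0.45 to 1.27 and Nab1 from -0.037 to 0.068. Under TAC, Egr3 in Alox5ko against WT ran from -0.94 to 0.55. Without TAC, Egr1 ran from -0.57 to 0.35, Nab1 from -0.087 to 0.00047 and Nab2 from -0.088 to 0.27. For the difference of the responses Egr2 ran from -0.25 to 1.08, Egr3 from -0.027 to 1.69 and Nab1 from -0.093 to 0.019, and over both genotypes Egr3 ran from -0.43 to 0.43. None of these values was called in any of those fits. DESeq2 called Egr1 with TAC over both genotypes (1.34, adjusted p = 0.0391) and gave 0.0584 as its adjusted p in WT. Under RLE scaling every member kept its side of the threshold. As deviations from group means, r was 0.647 for Egr1 and Egr2, -0.044 for Egr1 and Nab1, -0.801 for Egr1 and Nab2 and -0.347 for Egr2 and Nab2; on log2(RPKM + 0.1), r was 0.0753 for Egr3 and Nab1. The cause of these changes was not tested. Over all tested genes the replicate numbers were not found to pair the libraries. Correlations between libraries of the same number ran from -0.121 to 0.0916, and those of other numbers from -0.144 to 0.0978. Of 12 libraries, 5 correlated best with their own number. With a replicate block the counts were 110, 170, 21, 6, 0, 774 and 29. The Nab2 value with TAC in WT was then 1.35 (adjusted p = 0.0161 by edgeR), and its SE fell from 0.252 to 0.187. Egr3 in Alox5ko_TAC against WT_TAC turned to -0.18 (adjusted p = 0.950 by edgeR). The SE of Egr3 with TAC fell from 0.824 to 0.458 in WT and from 0.879 to 0.488 in Alox5ko. What the replicate number stands for is not given. Depth limits Egr2 and Egr3, with at most 76 and 46 counts in a library.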

Other observations

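Gli1, whose profile was the nearest to that of Nab2, lies on chromosome 10 as well, 319329 bases away. Its mean was 0.813 CPM or less in each group. The genes within 500000 bases of Nab2 were then looked at, a choice made after seeing the data. Of 29 tested genes there, Gm16229 was the 1 called with TAC in WT by edgeR, where 0.766% of all genes were called. Gm16229 shares 1050 exon bases with Nab2 and may hold the same reads, so its value is not a separate observation. The median of the 29 was 0.14, from -0.62 for Prim1 to 1.35 for Gm16229. Between the genotypes under TAC 0 of 29 were called by edgeR, where 0.109% of all genes were called. Their median was -0.09, with Gli1 the lowest at -0.88. Gli1 came to notice through its likeness to Nab2 in these same libraries, so its value is not a separate observation either.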
